A study of Mus musculus with 8 samples.

Results

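The 39 genes described here encode 26 receptor tyrosine kinases, without the Eph and vascular families, and 13 growth factors of neural tissue. They were chosen by name, as a list of symbols, with earlier results of these data known. All 39 have a row among the 24421 gene rows of the tables. Their RNA was measured as it is bound to ribosomes of Otp-lineage cells, in mice whose Cic gene was floxed and in mice where it was not, to ask what changes in these cells when Cic is lost. Cic encodes Capicua, a DNA-binding repressor that works with ATXN1 and that receptor tyrosine kinase signalling through ERK is known to relieve.

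The 4 KO libraries came from mice of genotype Otp-Cre; Cicflox/flox; ROSAfsTRAP and the 4 Control libraries from mice of genotype Otp-Cre; ROSAfsTRAP, all on C57BL/6. Both groups therefore carry the Cre driver and the allele that tags ribosomes in cells with Cre activity, and only KO mice carry the floxed alleles. Cre acts wherever Otp, a transcription factor gene of hypothalamic and amygdalar neurons, is or was active, so the tagged cells are a mixture of neuron types from the dissected hypothalamus and medial amygdala. The labels used here state neither age nor sex, nor whether a library is 1 animal. The p-values therefore reflect only how much these libraries vary. The values are counts scaled to library size (CPM), from 33223878 to 49587839 gene counts per library in KO and from 38171319 to 57300362 in Control. Cic itself had 44.9, 34.5, 59.3 and 37.5 CPM in the KO libraries, against 103, 72.4, 101 and 101 CPM in the Control libraries. The groups did not overlap (log2 fold change -1.10, 95% interval -1.43 to -0.76, edgeR adjusted p = 0.00220). The KO mean was 46.7% of the Control mean, so Cic RNA was lower in KO but not absent. Counts per gene do not show which cells or which exons the remaining Cic RNA came from, and its source was not tested. The summed CPM of 8 neuronal markers, most of it from Snap25, was 12431 to 16575 in KO and 12165 to 14329 in Control. Of the 8 markers 6 were higher in KO, and the median log2 fold change of the 8 was 0.12. All 6 transcription factor genes of the Otp lineage had a higher mean in KO, with a median log2 fold change of 0.45. Of the 6, 3 were at an unadjusted p under 0.05, beside 6.06% of all tested genes on the higher side, and none passed the adjusted threshold by edgeR. Their summed CPM, most of it from Arnt2, was 267 to 393 in KO and 230.0 to 319 in Control. These ranges overlap, and an exact permutation test of the sums gave p = 0.257. Otp was low and ranged from 2.69 up to 8.55 CPM in KO and from 2.28 up to 5.01 CPM in Control.

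A receptor tyrosine kinase spans the membrane, binds a growth factor outside the cell and, once paired with a second receptor, phosphorylates tyrosines on itself that recruit adaptor proteins and switch on the RAS-ERK, PI3K and phospholipase C pathways. In neurons these receptors govern survival, axon growth, synapse formation and metabolism. In glia they set proliferation and myelination, so several of the 39 genes are best known from astrocytes, oligodendrocytes or their precursors. The FGF homologous factors Fgf12, Fgf13 and Fgf14 belong to the FGF family by sequence but stay inside the cell and bind voltage-gated sodium channels.

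No member passed the test between KO and Control. Of the 39 genes 38 were tested, and by edgeR's quasi-likelihood test with Benjamini-Hochberg adjustment over 15438 genes 0 rose and 0 fell at an adjusted p of 0.05. Of all tested genes 40 passed (0.259%), with 0.194% higher and 0.0648% lower. DESeq2, run on the same counts, likewise called 0 members, and 198 of all genes (1.44% of those with an adjusted p). At an unadjusted edgeR p under 0.05 there were 9 members, 3 higher and 6 lower in KO (23.7%), against 10.6% of all tested genes, 6.06% higher and 4.53% lower. The count moved to between 5 and 11 when 1 library was left out, with the 5 without Control replicate 1. The count over all genes moved as well, from 1634 to between 1105 and 2168. DESeq2 put 11 members under an unadjusted p of 0.05, Ror1 among them. The 9 were Igf1r, Ntrk3 and Pdgfa on the higher side and Fgf1, Pdgfb, Ror2, Ntf3, Ddr1 and Tyro3 on the lower side. In 5 of the 38 (13.2%) the 4 KO and 4 Control libraries did not overlap, 1 with KO higher and 4 with KO lower, against 5.93% of all tested genes, 3.01% higher and 2.91% lower. Ntf3 and Ror2 are in both counts and entered the test through their Control libraries, where they were high. The list of members was also chosen with earlier results of these data known. Neither share therefore stands as support for a difference in the members. The median log2 fold change of the 38 was -0.05, beside 0.02 over all tested genes, with 17 above and 21 below 0. The fold changes in this text are KO over Control, and the interval printed with each is a 95% interval from the same fit. For 26 of the 38 the interval stayed inside a 2-fold change in both directions, a lower share than the 76.5% of all tested genes. The 26 include all 24 members whose Control mean was over 10 CPM. For the other 12, each under 10 CPM in Control, the interval did not exclude a 2-fold change. The minimum count for testing was met in all 8 libraries by 35 members, and not by Erbb2, Ror2, Ntf3 and the untested Ror1. In such bulk libraries fewer cells of a type and less RNA per cell cannot be told apart.

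Capicua is known from other systems to bind the octamer TGAATGAA and its close forms, so the start regions of the genes were read for it. The windows, from RefSeq on GRCm38.p6, run from 250 bases before an annotated start to 50 after it. For 30 members a window was found by symbol, 49 windows in all, and the members without a match were Erbb3, Ntrk3, Insr, Fgfr1, Ret, Pdgfb, Nrg1, Fgf1 and Nrg2. TGAATGAA, TGAATGGA, TCAATGAA and TCAATGGA were searched on both strands, and a window with several matches, which may overlap, was counted once. They occurred in 0 of the 49 windows of members, and in 1260 of all 32851 windows (3.84%). A match or its absence in these windows is a description of the letters only. A pair of short stretches shows what the octamer looks like where it does occur, with the octamer in capitals. Their genes, which are not members, were picked after their values were seen. Maff, a small Maf transcription factor gene, rose in KO (log2 fold change 1.91, 95% interval 1.28 to 2.53, edgeR adjusted p = 0.00484), and so did Spred3, which encodes an inhibitor of ERK signalling (log2 fold change 1.27, 95% interval 0.97 to 1.57, edgeR adjusted p = 0.000127). The Maff stretch lies at chr15:79347476-79347529 on the plus strand and the Spred3 stretch at chr7:29168648-29168701 on the minus strand, each printed 5′ to 3′ of the gene.
Maff: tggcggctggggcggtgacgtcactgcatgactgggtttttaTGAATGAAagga
Spred3: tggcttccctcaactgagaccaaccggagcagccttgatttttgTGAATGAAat

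For comparison, the 250 bases before the RefSeq start of 2 members are given, Igf1r as a member on the higher side and Tyro3 as one on the lower side. The Igf1r stretch lies at chr7:67952007-67952256 and the Tyro3 stretch at chr2:119799264-119799513, both on the plus strand. A gene can have several annotated starts, and the Maff, Spred3 and Tyro3 stretches lie inside the GENCODE M21 span of their gene, which opens at an earlier start. Neither holds the octamer. Both are rich in G and C, at 77.6% for Igf1r and 73.2% for Tyro3, beside a median of 52.4% over all windows.
Igf1r: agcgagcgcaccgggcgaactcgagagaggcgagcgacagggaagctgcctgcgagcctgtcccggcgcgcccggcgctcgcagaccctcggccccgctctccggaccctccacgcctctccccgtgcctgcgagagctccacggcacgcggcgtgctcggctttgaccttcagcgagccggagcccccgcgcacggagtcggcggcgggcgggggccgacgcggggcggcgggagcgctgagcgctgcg
Tyro3: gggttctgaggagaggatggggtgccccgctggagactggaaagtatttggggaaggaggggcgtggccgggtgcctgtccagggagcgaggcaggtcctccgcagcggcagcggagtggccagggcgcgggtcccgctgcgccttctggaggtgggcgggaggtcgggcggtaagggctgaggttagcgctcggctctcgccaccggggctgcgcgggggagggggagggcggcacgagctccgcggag

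Levels between genes were compared as CPM per kilobase of exon, with exon lengths from GENCODE M21, and on that scale the 39 genes covered a wide range. Ligands and intracellular factors took the highest 4 places in both groups. Fgf1 had 28.5 ± 5.12 in KO and 38.1 ± 4.02 in Control (mean ± SD of CPM per kilobase, n = 4 each, as for the values that follow), Fgf12 35.2 ± 4.04 in KO and 33.3 ± 3.56 in Control, and Fgf13 28.4 ± 3.97 in KO and 29.6 ± 2.53 in Control. Pdgfa had 32.5 ± 7.76 in KO and 25.3 ± 2.65 in Control. Neighbours in the order of these 4 genes differed by less than the sum of their SDs in both groups. The order itself ran Fgf12, Pdgfa, Fgf1, Fgf13 in KO and Fgf1, Fgf12, Fgf13, Pdgfa in Control. Ntrk2 was the most abundant receptor, with 18.3 ± 2.35 in KO and 18.2 ± 3.68 in Control, above Ret with 6.34 ± 2.03 in KO and 7.77 ± 1.19 in Control and Fgfr1 with 5.80 ± 0.973 in KO and 5.10 ± 0.320 in Control. At the low end of the Control order, Ror1, Ddr2, Erbb2 and Ror2 had between 0.00691 and 0.0941 in KO and between 0.0588 and 0.203 in Control. A mean of 1 CPM, before division by length, was not reached in Control by 5 members, Erbb2, Ror1, Ror2, Ntf3 and Nrg2.

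**Figure D1:**
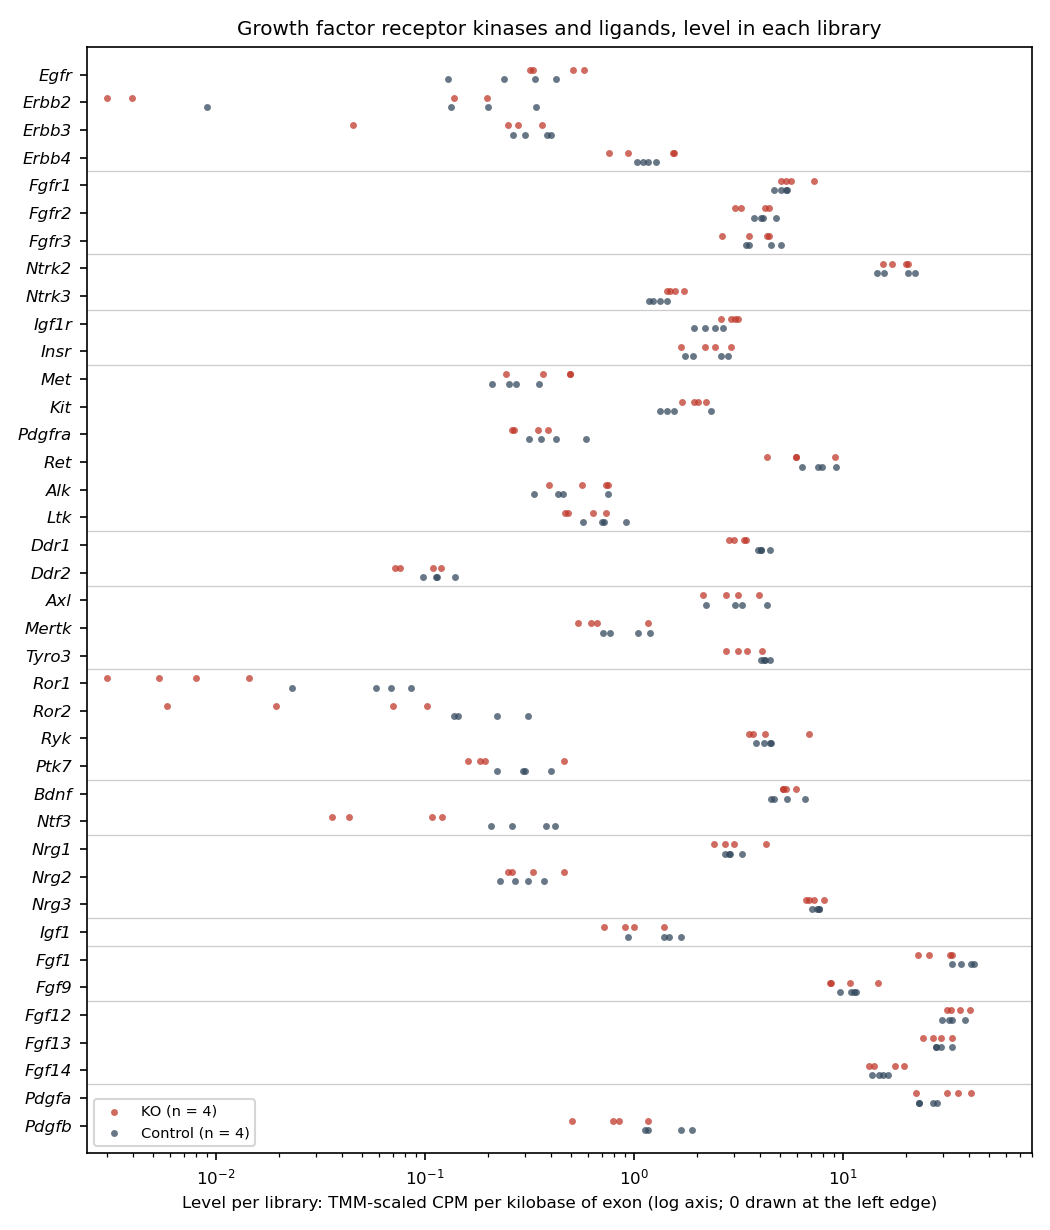
Level of the 39 members in each library as TMM-scaled CPM per kilobase of exon on a log axis, KO in red above Control in dark blue, 1 point per library with a 0 drawn at the left edge, grouped by role with lines between roles. Fgf1, Fgf12, Fgf13 and Pdgfa have the highest means and Ror1 the lowest, and most pairs of groups overlap.

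Among the ErbB receptors, which bind EGF-like ligands and neuregulins, Erbb4 was the most abundant per kilobase. Erbb4, the neuregulin receptor of neurons, had 19.1, 18.9, 11.6 and 9.40 CPM in KO, against 15.7, 12.7, 13.6 and 14.3 CPM in Control. The KO values spanned the Control values on both sides, and no difference passed the test (log2 fold change 0.07, 95% interval -0.36 to 0.49, edgeR adjusted p = 0.945). Egfr, the EGF receptor, ranged from 3.60 up to 6.50 CPM in KO and from 1.46 up to 4.77 CPM in Control (log2 fold change 0.62, 95% interval -0.07 to 1.32, edgeR adjusted p = 0.537). Erbb3, a neuregulin receptor known from oligodendrocytes and Schwann cells, ranged from 0.272 up to 2.19 CPM in KO and from 1.58 up to 2.40 CPM in Control (log2 fold change -0.52, 95% interval -1.53 to 0.48, edgeR adjusted p = 0.772). Erbb2, the partner receptor that binds no ligand itself, was uneven between libraries of both groups, at 1, 45, 29 and 0 counts in the KO libraries and 61, 2, 67 and 31 counts in the Control libraries. With an interval of -3.19 to 1.21, no difference in Erbb2 could be resolved (edgeR adjusted p = 0.811). No neuregulin, a ligand of ErbB3 and ErbB4, passed the test. Nrg3 led them per kilobase, with 45.2, 46.7, 49.5 and 55.3 CPM in KO, against 50.9, 52.5, 51.97 and 48.1 CPM in Control, and all values of both groups lay in one narrow band (log2 fold change -0.05, 95% interval -0.29 to 0.19, edgeR adjusted p = 0.928). Nrg1 ranged from 24.9 up to 44.4 CPM in KO and from 28.2 up to 33.9 CPM in Control (log2 fold change 0.09, 95% interval -0.24 to 0.42, edgeR adjusted p = 0.901), and Nrg2 from 0.781 up to 1.45 CPM in KO and from 0.715 up to 1.16 CPM in Control (log2 fold change 0.13, 95% interval -0.91 to 1.17, edgeR adjusted p = 0.956).

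The 3 FGF receptors were all expressed and overlapped between groups. Fgfr1, the FGF receptor most typical of neurons, had 52.6, 71.4, 55.4 and 49.96 CPM in KO, against 49.6, 52.5, 53.3 and 46.3 CPM in Control, with KO replicate 2 above all other libraries (log2 fold change 0.19, 95% interval -0.08 to 0.45, edgeR adjusted p = 0.668). Fgfr2, known from oligodendrocytes, ranged from 31.3 up to 45.4 CPM in KO and from 38.7 up to 49.2 CPM in Control (log2 fold change -0.16, 95% interval -0.45 to 0.14, edgeR adjusted p = 0.763). Fgfr3, known from astrocytes, ranged from 18.8 up to 31.5 CPM in KO and from 24.6 up to 36.1 CPM in Control (log2 fold change -0.15, 95% interval -0.51 to 0.20, edgeR adjusted p = 0.820).

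Fgf1, a ligand gene, had the smallest p of all members. It encodes a growth factor without a classical export signal that binds all the FGF receptors, and lies on the minus strand of chromosome 18 between bases 38838673 and 38929472 in GRCm38. Fgf1 had 141, 177, 182 and 124 CPM in KO, against 199, 222, 230.1 and 182 CPM in Control. Every KO library was below every Control library, though the highest KO value was 181.6 CPM and the lowest Control value 181.8 CPM. The KO level was 0.748 of the Control level, and the difference did not pass (log2 fold change -0.42, 95% interval -0.70 to -0.14, edgeR adjusted p = 0.244). Leaving out 1 library gave log2 fold changes of -0.50 to -0.33. Fgf9, a secreted factor known from neurons, ranged from 40.3 up to 67.9 CPM in KO and from 44.95 up to 53.2 CPM in Control and no difference passed the test (log2 fold change -0.02, 95% interval -0.34 to 0.29, edgeR adjusted p = 0.979).

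The intracellular FGF homologous factors were abundant and close between groups. Fgf12 had 224, 195, 252 and 203 CPM in KO, against 205, 184, 199 and 237 CPM in Control, with the highest and the lowest library in different groups (log2 fold change 0.08, 95% interval -0.17 to 0.34, edgeR adjusted p = 0.873). Fgf13 averaged 114 ± 15.9 CPM in KO and 119 ± 10.1 CPM in Control (SD, n = 4 each; log2 fold change -0.06, 95% interval -0.32 to 0.20, edgeR adjusted p = 0.915) and Fgf14 67.5 ± 12.3 CPM in KO and 63.1 ± 4.63 CPM in Control (log2 fold change 0.10, 95% interval -0.18 to 0.37, edgeR adjusted p = 0.860). The intervals of all 3 exclude a change of 1.5-fold in either direction.

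Of the neurotrophin receptor genes neither passed the test. Ntrk2 encodes TrkB, the receptor of BDNF, and had 299, 393, 330.0 and 386 CPM in KO, against 427, 304, 396 and 280.1 CPM in Control. Both groups spread over about the same range, and the estimate lay at 0 (log2 fold change 0.00, 95% interval -0.30 to 0.30, edgeR adjusted p = 0.999). TrkB has a full-length kinase form and a truncated form known from astrocytes, and counts per gene do not separate them. Ntrk3 encodes TrkC, the receptor of neurotrophin-3, and had 43.4, 51.9, 44.7 and 47.5 CPM in KO, against 40.1, 37.1, 43.4 and 35.6 CPM in Control. All 4 KO libraries lay above all 4 Control libraries, although the lowest KO and the highest Control value both round to 43.4 CPM, and the difference did not pass (log2 fold change 0.26, 95% interval 0.01 to 0.52, edgeR adjusted p = 0.441). The groups of Ntrk3 overlapped with total counts or upper-quartile factors in place of TMM.

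Among the neurotrophins themselves, Bdnf had 37.04, 32.1, 33.03 and 31.9 CPM in KO, against 33.3, 40.8, 29.01 and 28 CPM in Control, with the highest and lowest values both in Control (log2 fold change 0.03, 95% interval -0.26 to 0.32, edgeR adjusted p = 0.963). An annotated gene on the opposite strand, Gm45346, covers 14.4% of the Bdnf exons. Ntf3, which encodes neurotrophin-3, was near the detection limit, at 9, 9, 3 and 2 counts in the KO libraries and 38, 15, 27 and 20 in the Control libraries. In CPM this is 0.186, 0.207, 0.0742 and 0.0616 in the KO libraries and 0.650, 0.353, 0.715 and 0.448 in the Control libraries, without overlap (log2 fold change -1.99, 95% interval -3.51 to -0.46, edgeR adjusted p = 0.322). The count minimum for testing, 0.234 CPM in at least 4 libraries, was met by 0 KO and 4 Control libraries, so Ntf3 was tested only because Control was high.

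The insulin family receptors bind insulin and the insulin-like growth factors. Igf1r, the IGF-1 receptor, had 52.8, 49.01, 50.9 and 43.9 CPM in KO, against 44.7, 32.4, 40.9 and 36.6 CPM in Control. The lowest KO value, in replicate 4, lay below the highest Control value, in replicate 1, and the other KO libraries lay above all Control libraries. The KO level was 1.27 times the Control level, and the difference did not pass (log2 fold change 0.35, 95% interval 0.08 to 0.62, edgeR adjusted p = 0.322). Insr, the insulin receptor, ranged from 23.04 up to 39.99 CPM in KO and from 24.02 up to 38.8 CPM in Control (log2 fold change 0.02, 95% interval -0.35 to 0.39, edgeR adjusted p = 0.983). The ligand Igf1 had 7.11, 13.8, 9.90 and 8.93 CPM in KO, against 16.5, 9.27, 14.5 and 13.8 CPM in Control, with KO replicate 2 and Control replicate 2 each standing among the other group's values (log2 fold change -0.45, 95% interval -0.89 to 0.00, edgeR adjusted p = 0.473).

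Of the 6 other classical receptors none was at an unadjusted p under 0.05, and 3 lay above and 3 below 0. Ret, the signalling receptor of GDNF-family ligands, was the most abundant of them per kilobase, with 40.3, 61.96, 40.1 and 29.2 CPM in KO, against 53.5, 42.8, 62.4 and 51.4 CPM in Control. KO replicate 2 was nearly as high as the highest Control library and the other KO libraries lay below every Control library (log2 fold change -0.29, 95% interval -0.66 to 0.08, edgeR adjusted p = 0.611). Kit, the receptor of stem cell factor, averaged 17.5 ± 1.87 CPM in KO and 14.8 ± 4.11 CPM in Control (SD, n = 4 each; log2 fold change 0.24, 95% interval -0.14 to 0.61, edgeR adjusted p = 0.712). Met, the receptor of hepatocyte growth factor, ranged from 1.88 up to 3.79 CPM in KO and from 1.61 up to 2.69 CPM in Control (log2 fold change 0.55, 95% interval -0.14 to 1.25, edgeR adjusted p = 0.599). Pdgfra, the PDGF receptor that marks oligodendrocyte precursors, ranged from 2.60 up to 3.88 CPM in KO and from 3.15 up to 5.87 CPM in Control (log2 fold change -0.42, 95% interval -1.01 to 0.18, edgeR adjusted p = 0.665). The related receptor genes Alk and Ltk lay on opposite sides of 0. Alk ranged from 3.03 up to 5.81 CPM in KO and from 2.57 up to 5.82 CPM in Control (log2 fold change 0.31, 95% interval -0.32 to 0.93, edgeR adjusted p = 0.789), and Ltk from 1.68 up to 2.62 CPM in KO and from 2.04 up to 3.29 CPM in Control (log2 fold change -0.32, 95% interval -1.01 to 0.36, edgeR adjusted p = 0.798).

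The PDGF ligand genes lay on opposite sides of 0. Pdgfa, the ligand of PDGF receptor alpha, had 69.8, 97.9, 127 and 111 CPM in KO, against 71.9, 87.99, 83.5 and 71.7 CPM in Control. KO replicate 1 was the lowest of all 8 libraries and the other 3 KO libraries were the highest, so the groups overlapped through 1 library (log2 fold change 0.36, 95% interval 0.05 to 0.68, edgeR adjusted p = 0.390). Leaving out 1 library gave log2 fold changes of 0.24 to 0.50. Pdgfa lies on the minus strand of chromosome 5 between bases 138976014 and 138997370, and 26.1% of its exons overlap 6330403L08Rik, a gene of the opposite strand, with which it may share reads. Pdgfb, which signals through both PDGF receptors, was lower in level, with 2.10, 4.85, 3.54 and 3.30 CPM in KO, against 4.86, 4.68, 7.86 and 6.94 CPM in Control. KO replicate 2 lay between the Control libraries and the other KO libraries lay below all of them (log2 fold change -0.82, 95% interval -1.41 to -0.23, edgeR adjusted p = 0.292).

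The collagen receptors Ddr1 and Ddr2 were both on the lower side. Ddr1, on the minus strand of chromosome 17 between bases 35681567 and 35704621, is known from myelinating oligodendrocytes and epithelia and had 14.4, 16.3, 13.6 and 16.05 CPM in KO, against 21.3, 18.7, 19.4 and 19.2 CPM in Control. No KO library reached the lowest Control library, and the KO level was 0.768 of the Control level (log2 fold change -0.38, 95% interval -0.68 to -0.08, edgeR adjusted p = 0.333). Of 16 oligodendrocyte markers 15 were negative too, with a median log2 fold change of -0.34. With the mean log2 CPM of 76 glial, vascular and meningeal markers as a covariate Ddr1 stood at -0.32 (edgeR adjusted p = 0.503), at an unadjusted p of 0.05 or more. That covariate mixes several cell types, and the part of oligodendrocyte RNA in the Ddr1 value was not tested. Ddr2 was sparse and ranged from 0.668 up to 1.11 CPM in KO and from 0.900 up to 1.29 CPM in Control (log2 fold change -0.30, 95% interval -1.33 to 0.73, edgeR adjusted p = 0.892).

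The TAM receptors Tyro3, Axl and Mertk bind GAS6 and protein S. Tyro3, the member of the family known from neurons and from myelinating cells, lies on the plus strand of chromosome 2 between bases 119797733 and 119818104 and had 17.03, 25.4, 21.6 and 19.5 CPM in KO, against 27.7, 26.2, 25.8 and 25.2 CPM in Control. The Control values were tightly grouped and 3 of the 4 KO libraries lay below them, while KO replicate 2 lay among them (log2 fold change -0.33, 95% interval -0.63 to -0.03, edgeR adjusted p = 0.424). With the same covariate Tyro3 stood at -0.27 (edgeR adjusted p = 0.581), at an unadjusted p of 0.05 or more. The part of other cells' RNA in the Tyro3 value was not tested. Axl, known from vascular cells and activated microglia, had 15.1 ± 3.89 CPM in KO and 16.2 ± 4.37 CPM in Control (SD, n = 4 each; log2 fold change -0.10, 95% interval -0.53 to 0.33, edgeR adjusted p = 0.913), and Mertk, known from astrocytes and microglia, 3.23 ± 1.22 CPM in KO and 4.02 ± 0.995 CPM in Control (log2 fold change -0.32, 95% interval -0.96 to 0.32, edgeR adjusted p = 0.783). Axl lies 0.490 Mb from Cic on chromosome 7. Spred3, shown above with the octamer, lies 3.89 Mb from Cic on the same chromosome. Igf1r, Ntrk3 and Fgfr2 are further away on it, at 42.7, 52.9 and 104.9 Mb. Only KO mice carried the floxed allele, so loss of Cic and effects of linked DNA cannot be told apart.

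The receptors that bind Wnt proteins were mostly sparse. Ryk, a Wnt co-receptor, was the exception, with 16.1, 19.2, 16.8 and 31.2 CPM in KO, against 20.3, 18.8, 20.4 and 17.3 CPM in Control, and KO replicate 4 stood above the other 7 libraries (log2 fold change 0.11, 95% interval -0.27 to 0.50, edgeR adjusted p = 0.890). Ror2, a receptor of Wnt5a known mainly from development, had 4, 13, 1 and 14 counts in the KO libraries and 34, 40, 23 and 59 counts in the Control libraries. In CPM the values were 0.0824, 0.299, 0.0247 and 0.431 in the KO libraries and 0.582, 0.941, 0.609 and 1.32 in the Control libraries, without overlap (log2 fold change -2.06, 95% interval -3.62 to -0.50, edgeR adjusted p = 0.319). The minimum for testing was met by 2 KO and 4 Control libraries. Its relative Ror1 was too low to be tested, with 4, 2, 0 and 1 counts in the KO libraries and 23, 21, 5 and 15 in the Control libraries, so that every KO library was below every Control library. Ptk7, a catalytically inactive receptor of planar cell polarity, ranged from 0.863 up to 2.48 CPM in KO and from 1.19 up to 2.15 CPM in Control (log2 fold change -0.28, 95% interval -1.21 to 0.65, edgeR adjusted p = 0.889).

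**Figure D2:**
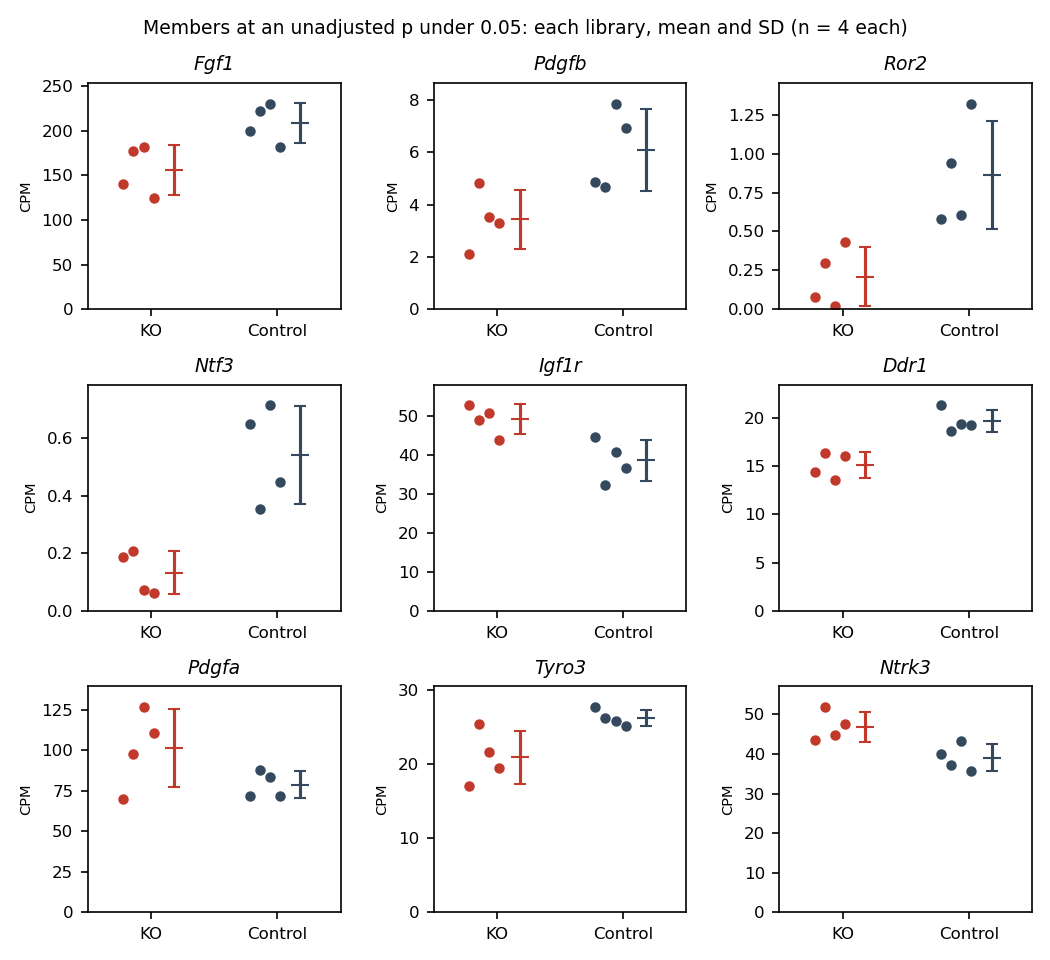
CPM of the 9 members at an unadjusted edgeR p under 0.05 in each library, KO left of Control, with 1 point per library and the group mean ± SD beside them (n = 4 each). The groups of Fgf1, Ror2, Ntf3, Ddr1 and Ntrk3 do not overlap, and those of Pdgfb, Igf1r, Pdgfa and Tyro3 overlap through 1 KO library each.

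**Figure D3:**
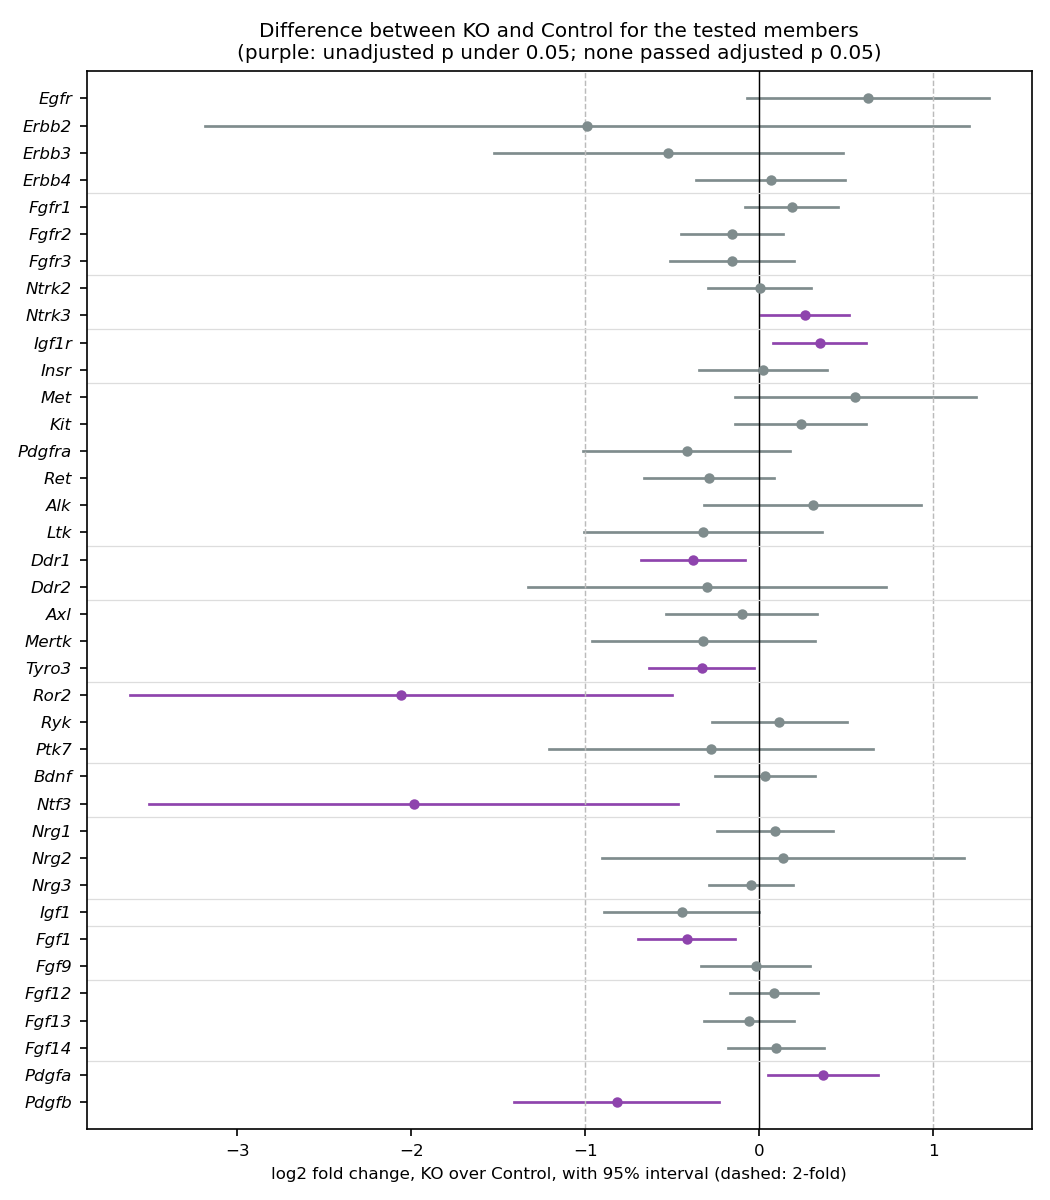
Log2 fold change, KO over Control, of the 38 tested members with its 95% interval, by role, with dashed lines at a 2-fold change and the 9 members at an unadjusted p under 0.05 in purple. Intervals are narrow for abundant genes such as Fgf12 and Nrg3 and wide for Erbb2, Ror2 and Ntf3.

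Around the members, 104 other genes of the pathway were read from the same fit, of which 90 were tested, and 0 rose and 0 fell by edgeR at an adjusted p of 0.05. At an unadjusted p under 0.05 there were 5 higher and 5 lower, 11.1% of the 90 beside 10.6% of all tested genes, and the groups of 3.33% did not overlap, beside 5.93% of all tested genes. These shares are near or below the background, and the genes named are those of smallest p. DESeq2 called 1, Fgf7. Their median log2 fold change was -0.0026, with 45 above and 45 below 0. Fgf7, keratinocyte growth factor, a ligand of FGF receptor 2, came closest, with 6.51, 5.35, 4.95 and 5.08 CPM in KO, against 1.85, 1.46, 3.39 and 2.04 CPM in Control and no overlap (log2 fold change 1.33, 95% interval 0.71 to 1.95, edgeR adjusted p = 0.0738, and adjusted p = 0.00151 with DESeq2). Among 37 other ligands 28 were tested. Besides Fgf7, the TAM ligand Gas6 had 72.5 ± 9.40 CPM in KO and 90.1 ± 7.53 CPM in Control (log2 fold change -0.31, 95% interval -0.57 to -0.06, edgeR adjusted p = 0.346). The Kit ligand Kitl had 18.99 ± 1.85 CPM in KO and 27.8 ± 12.2 CPM in Control (log2 fold change -0.55, 95% interval -1.05 to -0.05, edgeR adjusted p = 0.418). Its Control libraries had 33.9, 15.99, 19.5 and 41.99 CPM, and only replicates 1 and 4 lay above the KO range of 16.8 to 21.3 CPM. Pdgfd had 0.571 ± 0.323 CPM in KO and 1.33 ± 0.359 CPM in Control (log2 fold change -1.21, 95% interval -2.36 to -0.05, edgeR adjusted p = 0.442). Of 35 adaptors and proximal regulators, all tested, 21 lay above and 14 below 0, with the ubiquitin ligase gene Cbl, which ends receptor signalling, at 62.1 ± 9.44 CPM in KO and 44.7 ± 6.71 CPM in Control (log2 fold change 0.47, 95% interval 0.18 to 0.77, edgeR adjusted p = 0.199) and the insulin receptor substrate gene Irs4 at 118 ± 37.2 CPM in KO and 78.8 ± 23.6 CPM in Control (log2 fold change 0.59, 95% interval 0.09 to 1.08, edgeR adjusted p = 0.376). Of 18 co-receptors and binding proteins 16 were tested, with the adhesion molecule and GDNF co-receptor gene Ncam1 at 250.3 ± 23.7 CPM in KO and 194 ± 33.1 CPM in Control (log2 fold change 0.37, 95% interval 0.10 to 0.64, edgeR adjusted p = 0.302). Of 14 other receptor tyrosine kinase genes 11 were tested, 3 above and 8 below 0, and Aatk had 73.4 ± 9.69 CPM in KO and 88.2 ± 6.65 CPM in Control (log2 fold change -0.26, 95% interval -0.52 to -0.01, edgeR adjusted p = 0.448).

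RNA of other cells was present in the libraries, beside the Otp-lineage genes given above. Most markers of some cell types were lower in KO, but the summed CPM overlapped between the groups in every list. An exact permutation test of the sums gave p = 0.0571 for oligodendrocyte precursor, 0.143 for oligodendrocyte and 0.343 for microglial markers. Of 16 oligodendrocyte markers 15 had a negative fold change and 2, Cldn11 and Gjb1, fell by edgeR at an adjusted p of 0.05, with a median of -0.34 and a summed CPM of 1793 to 3281 in KO and 2808 to 3594 in Control. Markers of oligodendrocyte precursors had 8 of 9 negative, a median of -0.26 and a summed CPM of 204 to 297 in KO and 285 to 318 in Control. Microglial markers had 11 of 12 negative, a median of -0.50 and a summed CPM of 31.2 to 51.3 in KO and 28.6 to 82.2 in Control. Control replicates 1 and 4 had 82.2 and 80.1, and Control replicates 2 and 3 had 28.6 and 36.7. None of these 3 lists had a marker at 0 in any library. Astrocyte markers had 7 of 11 negative, a median of -0.10 and a summed CPM of 869 to 1348 in KO and 976 to 1403 in Control. Endothelial and mural markers had 8 of 14 negative, a median of -0.22 and a summed CPM of 10.9 to 40.5 in KO and 13.4 to 56.3 in Control, with 1 marker at 0 in a library. Ependymal and tanycyte markers had 6 of 8 negative with a median of -0.31, and a summed CPM of 22.6 to 39.5 in KO and 32.7 to 46.5 in Control, and fibroblast and meningeal markers 4 of 6 with a median of -0.28, and a summed CPM of 12.5 to 57.1 in KO and 9.42 to 53.4 in Control.

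The part of the Otp-lineage genes or of oligodendrocyte RNA in the members' values was not tested. The 9 members at an unadjusted p under 0.05 were picked in the same libraries, and Ntf3 and Ror2 entered the test through Control. How many of them stay under it in another fit is therefore no support for a difference. With the covariate of 76 markers, 0 members passed and 7 of the 9 remained at an unadjusted p under 0.05. Ddr1 and Tyro3 were the ones that did not. Fgf1 stood at -0.47 (edgeR adjusted p = 0.232), Pdgfb at -0.76 (edgeR adjusted p = 0.372), Igf1r at 0.36 (edgeR adjusted p = 0.384), Pdgfa at 0.36 (edgeR adjusted p = 0.456) and Ntrk3 at 0.28 (edgeR adjusted p = 0.491) on the log2 scale. Ntf3 stood at -2.005 (edgeR adjusted p = 0.406) and Ror2 at -1.88 (edgeR adjusted p = 0.376). Over all 16 alternative fits, Fgf1, Pdgfb and Ntf3 were under an unadjusted p of 0.05 in each. These fits reuse the libraries in which the 9 were picked, so this is no independent support for any of them. Ntf3 also entered the test only through Control. The other 6 were not in at least 1. The lowest adjusted p of any member in these fits was 0.0912, for Fgf1 with DESeq2, so none passed.

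**Figure D4:**
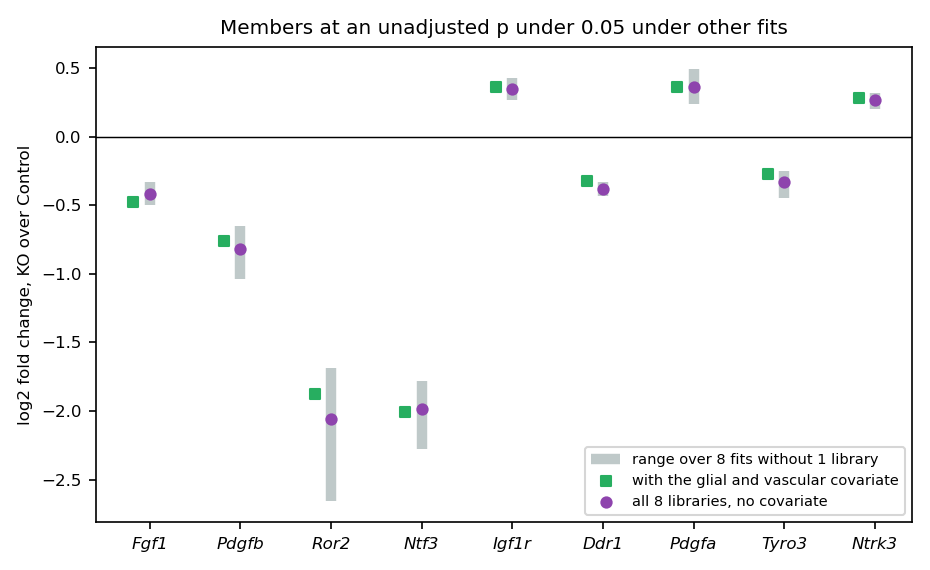
Log2 fold change, KO over Control, of the 9 members at an unadjusted p under 0.05 in the fit of all 8 libraries (purple), with the glial and vascular covariate (green) and as the range over the 8 fits that leave out 1 library (grey bars). Every member keeps its side of 0 in these fits, with the widest range for Ror2. The 9 were picked by their p in the same libraries, so a kept side is no independent support. Ntf3 and Ror2 entered the test through Control.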

How the data were processed

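Translating ribosome affinity purification pulls tagged ribosomes out of tissue lysate and the RNA bound to them is sequenced. Per the labels' protocols, 10 ng of RNA was amplified with a NuGEN kit from poly(A) and random primers. The authors deposited raw read counts per gene for 8 libraries, and the submitters' processing notes name TopHat2 2.0.9, HTSeq, DESeq2 and the build mm10. Whether reads were counted by strand is stated nowhere in the sources at hand, so a gene and a partner on the opposite strand may share reads. Of the records tallied per file, 69.2% to 81.9% in KO and 63.3% to 74.1% in Control were not unique alignments and enter no gene. These and the other 4 HTSeq tally rows and 92 ERCC spike-in rows were left out, which left 24421 genes. ERCC reads equalled 0.0655%, 0.0569%, 0.395% and 0.0739% of the gene counts in the KO libraries. In the Control libraries they equalled 0.299%, 0.522%, 0.401% and 0.327%, so all KO libraries but replicate 3 lay below every Control library. Genes with counts numbered 16804 to 17288 in KO and 17200 to 17707 in Control. What these differences between the groups reflect was not tested. Rn45s, ribosomal RNA, held 5.52% to 11.5% of the gene counts and was kept.

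Genes with at least 10 counts at the median library size in 4 libraries and 15 counts in all were kept, 15438 in number. The test was edgeR 4.0.16's quasi-likelihood test (R 4.3.3, TMM factors, robust) with Benjamini-Hochberg adjustment over these genes and a threshold of 0.05. Intervals are 95% intervals from the fit. CPM values carry the TMM factors. DESeq2 1.42.0 was an alternative, as were other scalings, no filter, a non-robust fit, the replicate number as a block, a covariate of 76 glial, vascular and meningeal markers and leaving out each library. The scripts were tested on simulated data. The replicate numbers showed no clear pairing: the correlations of same-numbered libraries' deviations from their group means lay between -0.05 and 0.10. Low correlations over all genes do not settle whether same-numbered libraries were prepared together. No pair of libraries agreed within sampling noise.

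The 39 members, the pathway lists and the marker lists were chosen with earlier results of these data known. Members described in full were, by rule, the most abundant per kilobase in Control of each role and those at an unadjusted p under 0.05 or without overlap, and pathway genes named are the 8 with the smallest p. Positions and exon lengths are from GENCODE M21 on GRCm38, and start regions from RefSeq on GRCm38.p6.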

Additional observations from a re-analysis of the deposited data

Results flagged for a closer look

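Ptk7, a receptor of planar cell polarity, had 2.48 CPM in KO replicate 2, while the other 3 KO libraries lay between 0.863 and 1.04 CPM. The gap between this library and its nearest neighbour was 0.891 of the whole range of the 4 libraries, above Dixon's 95% critical value for 4 samples. Each of 38 tested members was read in both groups, 76 groups in all, and chance flags about 1 in 20 of them. Control libraries of Ptk7 ran from 1.19 to 2.15 CPM.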

How the results depend on the processing

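The count of members past the adjusted threshold was 0 by edgeR and by DESeq2 under all 16 alternatives, and leaving out 1 library gave 0 to 0. At an unadjusted p the 9 members became 7 to 11 under the other alternatives and 5 to 11 when 1 library was left out, with 5 without Control replicate 1. Of all tested genes 1634 were under that p in the fit reported, and 1105 to 2168 when 1 library was left out. Over all genes 40 passed, against 198 with DESeq2's test, 26 with total counts only and 65 with the replicate number as a block, where 8 members were at an unadjusted p under 0.05, and 14 to 53 when 1 library was left out. The count moved by over 1.5 times to 26 without KO replicate 2. The same held for each Control library left out, with 19, 17, 26 and 14 genes for replicates 1 to 4. The pathway count of 0 became 1, Fgf7, with DESeq2's test, with the replicate block and without Control replicate 3, a range of 0 to 1 when 1 library was left out. Under the block the log2 fold change of Fgf7 was 1.39 (edgeR adjusted p = 0.0494), with DESeq2 it was 1.33 (adjusted p = 0.00151) and without Control replicate 3 it was 1.62 (edgeR adjusted p = 0.0349). The replicate numbers showed no clear pairing of the libraries, and the block changed no member's call. Of 608 member values 573 kept the direction of the fit reported, 35 did not, and none of those 35 was at an unadjusted p under 0.05. Among these, Ntrk2 was at -0.0059 with DESeq2 size factors, -0.011 with total counts only, -0.0072 with no filter, -0.0055 with DESeq2's test and -0.025 with upper-quartile factors, and Insr at -0.0074 with upper-quartile factors. With the glial and vascular covariate Insr was at -0.061, Axl was at 0.029, Bdnf was at -0.034, Nrg1 was at -0.0077 and Fgf14 was at -0.016. Leaving out 1 library, the log2 fold change ran from -0.093 to 0.22 for Erbb4, -0.094 to 0.11 for Ntrk2, -0.12 to 0.14 for Insr, -0.28 to 0.076 for Axl, -0.15 to 0.21 for Ryk, -0.037 to 0.15 for Bdnf, -0.11 to 0.19 for Nrg1, -0.086 to 0.26 for Nrg2, -0.21 to 0.056 for Fgf9, -0.15 to 0.0028 for Fgf13 and -0.018 to 0.17 for Fgf14. The cause of these shifts was not tested. The members under 1 CPM are limited by depth, and their fold changes depend on a few counts.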
